A study of Bos taurus with 24 samples.

Results

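The miRNAs miR-23, miR-27 and miR-24 are encoded in a pair of gene clusters, and their mature forms were followed in the mammary gland of dairy cows. The rows were chosen by name, as bta-miR-23a, bta-miR-23b-3p, bta-miR-27a-3p, bta-miR-27b and bta-miR-24-3p. Of these 5 miRNAs, 4 have a row among the 796 miRNAs listed, and bta-miR-23b-3p was not analysed here. Small RNA was sequenced from mammary biopsies of 5 Holstein (HOLS) and 6 Montbéliarde (MONT) cows, once on day 0 before feed restriction (CONT) and once on day 6 at its end (REST), which gave 22 libraries. The labels set the restriction at 60% of the net energy of lactation for 6 days, whereas the methods of the study name a lower share. All cows were multiparous and in midlactation and were fed freely in CONT, the biopsies were taken on alternate rear glands of the udder, and no cow was kept unrestricted, so the restriction, the elapsed days and the gland cannot be told apart. A further HOLS cow named in the labels was not analysed here, and the study excluded a HOLS cow for mastitis.

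miRNAs are short RNAs that guide Argonaute proteins to complementary sites in mRNAs and so lower translation and mRNA stability. The a cluster holds the genes of miR-23a, miR-27a and a copy of miR-24, and the b cluster those of miR-23b, miR-27b and another copy of miR-24, so miR-24-3p can come from either of them while miR-23 and miR-27 have a version from each. miR-27a and miR-27b are best known for repressing the adipogenic receptor PPARG, and miR-27 and miR-24 have been linked to triglyceride and fatty acid synthesis in mammary epithelial cells. In the RefSeq annotation of the cow assembly ARS-UCD2.0, MIR23A, MIR27A and MIR24-2 follow each other on chromosome 7. They lie inside the span of LOC132345691, annotated as protein-coding, and next to ZSWIM4. MIR23B, MIR27B and MIR24-1 follow each other on chromosome 8 inside the span of AOPEP. The authors aligned to another assembly, so only the order of the genes is used here. miR-27a-3p and miR-27b are near-identical in sequence, as are miR-23a and miR-23b, and the sources used here do not describe how reads that match both were counted, so the split between the a and the b version is uncertain.

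The libraries held between 6087865 and 18913916 counts, and the members between 2789 counts, for miR-24-3p, and 690613 counts, for miR-27b, so counting error was small beside the spread between cows. The study reports more adapter reads and a smaller share of clean reads in MONT than in HOLS. It names lower library quality as a possible reason for the lack of calls in MONT. The summed markers of epithelium, endothelium, smooth muscle and stroma, leukocytes, red cells and skeletal muscle were above 0 in all 4 groups, and none of the marker miRNAs with a row was at 0 throughout a group. The 9 epithelial markers with a row summed to a median of 484511 normalized read counts in HOLS CONT and 493671 in HOLS REST, against 315442 and 289857 in the same periods of MONT. From CONT to REST, 3 of these 9 had a fitted change above 0 in HOLS (median -0.10) and 2 in MONT (median -0.27). Over both breeds miR-200b was lower in REST (adjusted p = 0.00656, edgeR). Between the breeds 7 of the 9 were higher in HOLS in each period, and in REST 1 passed as higher and 1 as lower. In such bulk tissue, fewer cells of a type and less RNA per cell cannot be told apart. The libraries of MONT cow 9615 stood apart. Deviations from the period means correlated at -0.33 between its CONT and REST libraries, as a description across miRNAs, against 0.07 to 0.76 in the 10 other cows, and the values of the members and counts of calls that move with it are given with and without it.

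miR-27b was by far the most abundant member. Normalized read counts are the raw counts over the size factor that DESeq2 gave each library, with all 22 libraries scaled together. On this scale miR-27b averaged 343332 ± 49246 (SD, n = 22 libraries), which placed it at rank 8 of the 796 miRNAs and made it 3.05% of all counts. miR-27a-3p averaged 16430 ± 2219 (rank 49), miR-23a 7253 ± 831 (rank 64) and miR-24-3p 5902 ± 1577 (rank 69). A miRNA read covers about the whole molecule, so no scaling by length was made, but ligation efficiency differs between sequences and was not corrected. Of the counts of these 4 miRNAs, miR-27b held between 89.8% and 93.6% in every library.

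The order of the levels was partly fixed across cows. miR-27b exceeded miR-27a-3p, and miR-27a-3p exceeded miR-23a, in 22 of 22 libraries. miR-23a and miR-24-3p were not separated in the same way. miR-23a was above miR-24-3p in 10 of 10 HOLS libraries and in 7 of 12 MONT libraries. The arm opposite to miR-27a-3p, bta-miR-27a-5p, was present at 24 to 104 counts a library, and a median of 371 counts of the 3p arm stood against each count of the 5p arm in HOLS CONT. The medians of the other groups were 370 (HOLS REST), 426 (MONT CONT) and 417 (MONT REST). The entry bta-miR-24, whose name gives no arm, held 15 to 74 counts a library and a mean of 36.2 normalized read counts.

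miR-23a, miR-27a-3p and miR-27b varied little between libraries. Among the 220 miRNAs tested with a mean of at least 100 counts, miR-23a had an SD of the log2 normalized read count over the 22 libraries of 0.16, rank 4 from the smallest. miR-27a-3p followed at rank 11 with an SD of 0.19 and miR-27b at rank 21 with 0.21, against a median SD of 0.40. miR-24-3p was at rank 90, with an SD of 0.37. These libraries are pairs from 11 cows, so the ranks describe them and carry no test.

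**Figure D1:**
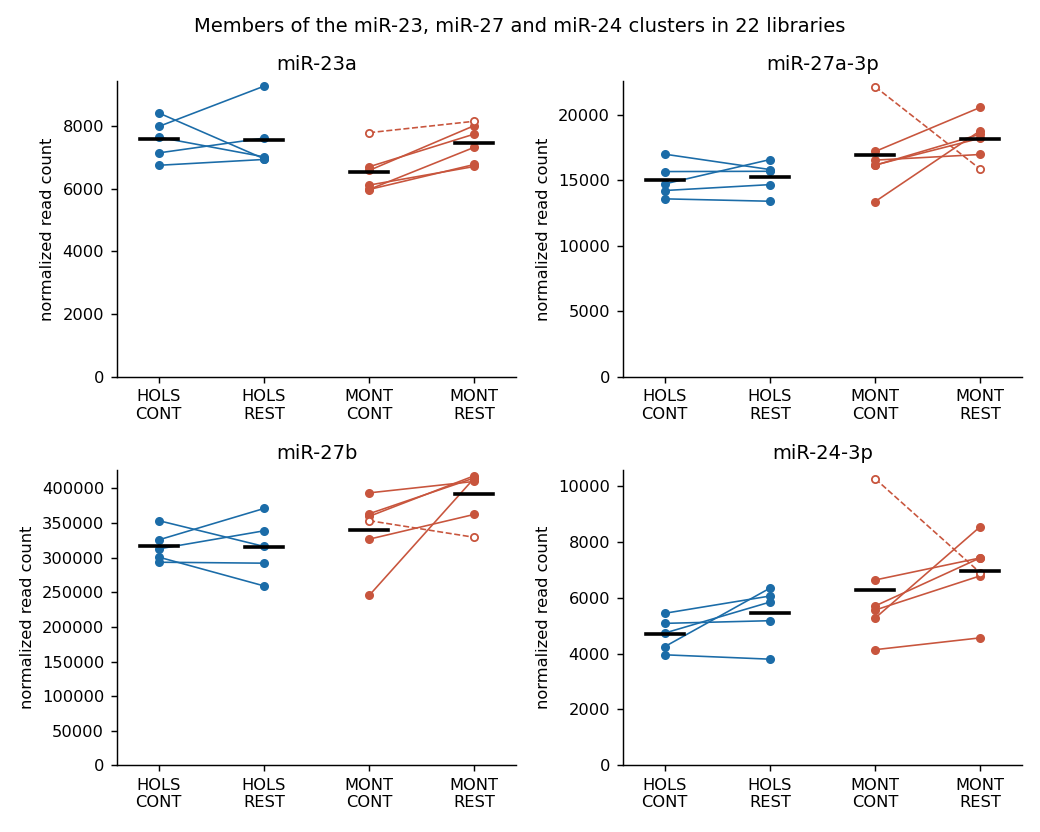
Normalized read counts (y axis, linear, from 0) of miR-23a, miR-27a-3p, miR-27b and miR-24-3p in the CONT and REST libraries of 5 HOLS (blue) and 6 MONT (red) cows, with a line for each cow, a dashed line and open symbols for MONT cow 9615 and black bars for the group means. The blue lines run in both directions for miR-23a, miR-27a-3p and miR-27b, and all 6 red lines rise for miR-23a.

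None of the 4 members passed the test between REST and CONT in HOLS. In HOLS CONT, miR-23a stood at 7986, 8416, 7641, 7142 and 6747 normalized read counts in cows 1155, 1165, 2182, 8200 and 9195. In HOLS REST the same cows had 9271, 6957, 7017, 7614 and 6933. The values rose in 3 of 5 cows and the periods overlapped. The mean was 7586 ± 662 (SD, n = 5) in CONT and 7558 ± 998 in REST, a log2 fold change of -0.01 ± 0.11 (SE) with an adjusted p of 0.981 in the quasi-likelihood test of edgeR after Benjamini-Hochberg adjustment. An interval of 2 SE ran from 0.85-fold to 1.16-fold. In that comparison 9 of 374 miRNAs tested passed the threshold of 0.05, which is 2.41%, and 0 of the 4 members did. At an unadjusted p under 0.05 there were 87 miRNAs (23.3%), again with no member among them.

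Neither member of the miR-27 pair passed the test in HOLS, and both fitted changes lay close to 0. miR-27a-3p, from the a cluster, had 15649, 14709, 14205, 16975 and 13568 normalized read counts in CONT and 15672, 16564, 14653, 15803 and 13386 in REST, in the same order of cows. The largest change of a cow was 0.17 on the log2 scale, and the periods overlapped. miR-27b, from the b cluster, had 312566, 293322, 325601, 353336 and 300676 in CONT and 338643, 291938, 370871, 316138 and 259138 in REST. It was higher in REST in cows 1155 and 2182 and lower in the other 3. The log2 fold changes were 0.01 ± 0.10 for miR-27a-3p and -0.01 ± 0.12 for miR-27b, with an adjusted p of 0.981 for each in edgeR's test, and the intervals of 2 SE covered 0.88-fold to 1.15-fold and 0.84-fold to 1.17-fold.

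miR-24-3p had the largest fold change of the members in HOLS, without passing the test. It stood at 4733, 4248, 3955, 5441 and 5079 normalized read counts in CONT and at 5841, 6340, 3799, 6058 and 5175 in REST. It was higher in REST in 4 of 5 cows, and the groups overlapped. The mean was 4691 ± 603 (SD, n = 5) in CONT and 5443 ± 1014 in REST, a log2 fold change of 0.20 ± 0.14 with an adjusted p of 0.439 in edgeR's test and of 0.164 with the cow as a block. The value was 0.091 without cow 1165 and 0.030 with library size as the only scaling, a scaling that moved the median of all miRNAs by -0.17. Over the same libraries, the endothelial pair miR-126-3p and miR-126-5p summed to 273690 to 361948 in CONT and 326521 to 483727 in REST, and the 7 smooth muscle and stroma markers to 1665560 to 2543010 and 2480640 to 3176540. The 7 leukocyte markers had a median sum of 32742 in CONT and 46646 in REST, with fitted changes above 0 for 6 of 7, and the 3 red cell markers of 32649 and 46275, although 1 of these 3 had a fitted change above 0 and their median was -0.09. None of the markers of these 4 lists passed the test, and their part in the value of miR-24-3p was not tested.

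In MONT, all 4 members had fitted changes above 0 with the main scaling and none passed the test. With upper quartile scaling, which moved the median of all miRNAs by -0.18, they stood at 0.012 (miR-23a), -0.078 (miR-27a-3p), 0.011 (miR-27b) and -0.0049 (miR-24-3p), while that median was -0.19. miR-23a ranged from 5974 through a median of 6349 to 7787 normalized read counts in CONT and from 6709 through 7533 to 8152 in REST. It was higher in REST in 6 of 6 cows, by 0.07 to 0.29 on the log2 scale, although the groups as a whole overlapped. The means were 6522 ± 693 (SD, n = 6) and 7452 ± 620, a log2 fold change of 0.18 ± 0.11 with an adjusted p of 0.437 in edgeR's test. An exact sign-flip permutation test over the 6 cows, which is two-sided, gave p = 0.0312 for miR-23a, the smallest p that 6 cows allow, and 0.156 after Benjamini-Hochberg adjustment over the 20 such tests made on the members.

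miR-27b and miR-27a-3p were each higher in REST in 5 of 6 MONT cows. miR-27b ranged from 245351 through a median of 356398 to 393428 in CONT and from 329266 through 412397 to 418188 in REST. Cow 2614 held the lowest CONT value and had the largest difference, 0.76 on the log2 scale, and cow 9615 was the cow with a lower REST value. miR-27a-3p ranged from 13362 through 16337 to 22118 in CONT and from 15829 through 18349 to 20548 in REST. Here cow 9615 had both the highest CONT value and the lowest REST value. The log2 fold changes were 0.19 ± 0.13 for miR-27b (adjusted p = 0.448) and 0.09 ± 0.12 for miR-27a-3p (adjusted p = 0.673) in edgeR's test. miR-27b means were 340247 ± 51172 (SD, n = 6) in CONT and 391599 ± 37066 in REST.

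miR-24-3p showed the widest spread in MONT. It ranged from 4139 through a median of 5630 to 10251 normalized read counts in CONT and from 4562 through 7153 to 8543 in REST. The 10251 belonged to cow 9615, whose REST library held 6884, and the 5 other cows had at most 6631 in CONT. The log2 fold change was 0.15 ± 0.20 (adjusted p = 0.695, edgeR's test). In the same comparison the 7 smooth muscle and stroma markers had a median of 0.66 on the log2 scale and the 3 red cell markers of -0.75, with none past the threshold, and their part in the members' values was not tested. No miRNA of the 349 tested passed the threshold in MONT, so 0% was called, and 47 had an unadjusted p under 0.05 (13.5%), with no member among them. Without cow 9615, edgeR called 46 miRNAs in MONT and still 0 of the 4 members, whose log2 fold changes were then 0.19 for miR-23a, 0.20 for miR-27a-3p, 0.22 for miR-27b and 0.32 for miR-24-3p.

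Over both breeds, with the breed as a covariate, the changes were small. The log2 fold changes were 0.06 ± 0.08 for miR-23a, 0.02 ± 0.08 for miR-27a-3p, 0.07 ± 0.09 for miR-27b and 0.14 ± 0.14 for miR-24-3p, with adjusted p-values from 0.514 to 0.865 in edgeR's test. Of the 388 miRNAs tested 35 passed, which is 9.02%, with 8 higher in REST (2.06%) and 27 lower (6.96%), and 0 of the 4 members did. Nor was a member among the 109 with an unadjusted p under 0.05 (28.1%). The median of the 4 members was 0.07 and that of all miRNAs tested -0.03. Leaving out cow 9615 gave 0.09 for miR-23a, 0.11 for miR-27a-3p, 0.11 for miR-27b and 0.27 for miR-24-3p. The last had an unadjusted p of 0.0392 and an adjusted p of 0.100 in edgeR's test. That fit called 121 of 388 miRNAs and 0 of the 4 members. Both breed comparisons and the interaction use the same libraries as these fits, and their values are therefore not independent of them.

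Some other miRNAs that have been linked to lipid metabolism passed the test over both breeds. Of the 32 listed, 31 were tested, and 5 rose in REST and 0 fell, beside the 2.06% higher and 6.96% lower among all miRNAs tested. They were miR-125b (log2 fold change 0.48), miR-181a (0.45), miR-181b (0.36), miR-25 (0.26) and miR-26b (0.35), with adjusted p-values in edgeR's test from 0.0126 to 0.0402. The 31 miRNAs had a median of -0.05. The list was chosen with earlier results of these data known. The study itself called miR-181a, miR-181b, miR-25 and miR-26b higher in REST from the same HOLS libraries. Shares of the list that passed, here and below, therefore cannot show an excess among lipid miRNAs. Only miR-181a passed under each of 10 other settings and with each of the 11 cows left out. With library size as the only scaling, miR-125b (adjusted p = 0.0814), miR-181b (0.105), miR-25 (0.181) and miR-26b (0.100) missed the threshold in edgeR's test and miR-33a fell. Without a filter only miR-181a passed, and with the upper quartile miR-181a, miR-25 and miR-26b did. With the cow as a block, edgeR called the same 5 higher in REST and 2 lower, miR-33a and miR-378, in a fit that called 56 of 388 miRNAs (17 higher). DESeq2 with the block called 7 of the list higher and the same 2 lower, and 109 of 441 miRNAs in all (58 higher). With a cow left out, miR-125b missed the threshold in 9 of 11 fits, miR-26b in 7, miR-181b in 6 and miR-25 in 1. The fit without MONT cow 9615 had 9 of the list higher in REST and 6 lower. Over all miRNAs it called 121 of 388, 59 of them higher in REST.

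Within a breed, the lipid calls depended on the block and the tool in HOLS and on cow 9615 in MONT. In HOLS 0 of 31 passed in the fit without a block, where miR-26b had the highest value, 0.51 (adjusted p = 0.0734, edgeR), and miR-33b the lowest, -0.28. With the cow as a block 6 rose, namely miR-143, miR-145, miR-181a, miR-181b, miR-25 and miR-26b (0.51, adjusted p = 0.0141, edgeR). Over all miRNAs that fit called 61 of 374, 30 of them higher in REST. DESeq2 called 5 of the list without and 8 with the block, all higher in REST and with miR-26b among them. Over all miRNAs DESeq2 called 26 of 476 without the block (7 higher) and 70 of 359 with it (40 higher). In MONT 0 of 30 passed, with miR-125b highest at 0.70 (adjusted p = 0.300) and miR-33b lowest at -0.61. Without cow 9615, miR-125b (0.96, adjusted p = 0.0149, edgeR), miR-130a and miR-221 rose and miR-33b stood at -0.81. That fit called 46 of 358 miRNAs, 26 of them higher in REST. No member of the miR-23, miR-27 and miR-24 clusters was called in any of these fits.

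**Figure D2:**
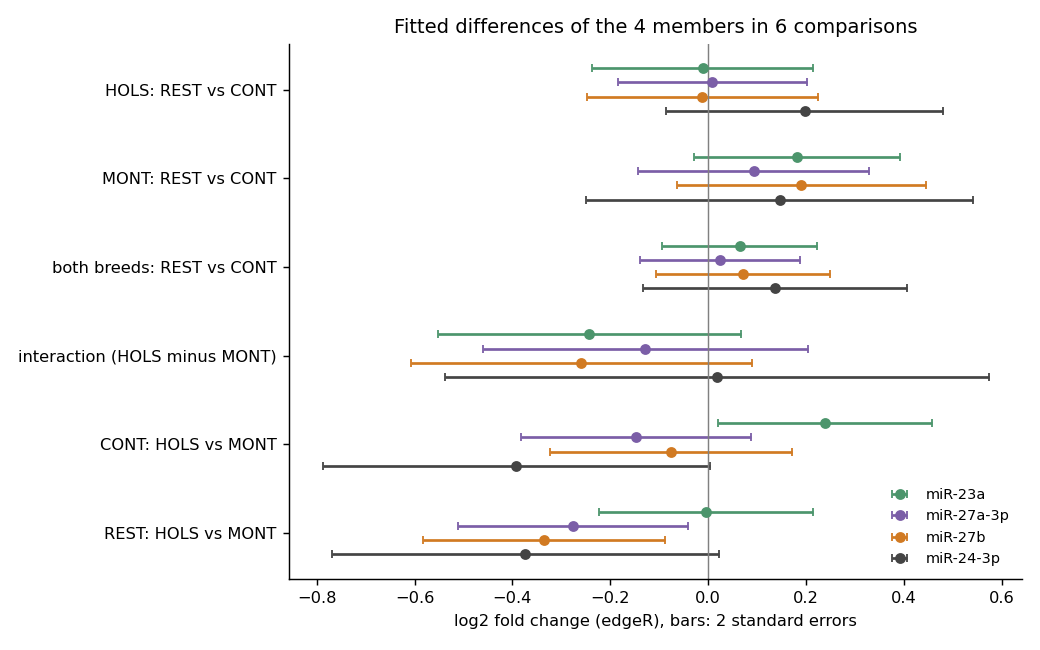
Log2 fold changes fitted by edgeR (x axis) of miR-23a, miR-27a-3p, miR-27b and miR-24-3p in 6 comparisons (y axis), with bars of 2 SE to each side. The bars cross 0 in every comparison of REST with CONT and in the interaction. Between the breeds, the bar of miR-23a lies above 0 in CONT, and those of miR-27a-3p and miR-27b lie below 0 in REST.

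The response to restriction was not found to differ between the breeds. The interaction, HOLS change minus MONT change, was -0.24 ± 0.15 for miR-23a, -0.13 ± 0.17 for miR-27a-3p, -0.26 ± 0.17 for miR-27b and 0.02 ± 0.28 for miR-24-3p on the log2 scale. All 4 adjusted p-values were 0.991 in edgeR's test. It called 0 of the 388 miRNAs tested (0%), with 3 at an unadjusted p under 0.05 (0.773%), and no member was called by DESeq2, by limma-voom or with the cow as a block. Leaving out cow 9615 gave -0.27 for miR-23a, -0.26 for miR-27a-3p, -0.32 for miR-27b and -0.18 for miR-24-3p, with no member called. Over all libraries, the values in the lipid list ran from -0.49 for miR-34b to 0.32 for miR-148a. The intervals of 2 SE, 0.68-fold to 1.05-fold for miR-23a and 0.66-fold to 1.06-fold for miR-27b, leave room for a difference of moderate size.

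Between the breeds in CONT, miR-23a and miR-24-3p pointed in opposite directions. In this comparison and in that of the REST libraries, breed and library quality cannot be told apart. miR-23a had the higher mean in HOLS, with 6747 to 8416 normalized read counts against 5974 to 7787 in MONT, a log2 fold change of 0.24 ± 0.11 with an adjusted p of 0.200 in edgeR's test. miR-24-3p had the lower mean in HOLS, with 3955 to 5441 against 4139 to 10251, a log2 fold change of -0.39 ± 0.20 with an adjusted p of 0.246. The groups overlapped for both, and neither passed the threshold. miR-27a-3p and miR-27b differed by -0.15 ± 0.12 and -0.08 ± 0.12. In this comparison 29 of 388 miRNAs passed, which is 7.47%, with 17 higher in HOLS (4.38%) and 12 lower (3.09%), and 0 of the 4 members did. miR-23a was one of the 86 with an unadjusted p under 0.05 (22.2%). Without cow 9615 edgeR called 2 of 388 miRNAs and no member. miR-24-3p then stood at -0.22, miR-27a-3p at -0.07, miR-27b at -0.08 and miR-23a at 0.28. From the lipid list miR-16a was higher in HOLS (0.80, adjusted p = 0.00937) and miR-25 lower (adjusted p = 0.0400), and they missed the threshold in 2 and 9 of the 11 fits with a cow left out, and miR-25 also in 4 of 9 other settings.

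Between the breeds in REST, both miR-27 members had lower means in HOLS, and neither passed the threshold over all libraries. miR-27a-3p lay at 13386 to 16564 normalized read counts in HOLS and 15829 to 20548 in MONT, and the overlap came from the lowest MONT library, that of cow 9615, and the next lowest, at 16953, was above every HOLS library. miR-27b lay at 259138 to 370871 in HOLS and 329266 to 418188 in MONT, where the lowest library was again that of cow 9615. The log2 fold changes were -0.28 ± 0.12 for miR-27a-3p (adjusted p = 0.112) and -0.34 ± 0.12 for miR-27b (adjusted p = 0.0698) in edgeR's test, which are 0.83-fold and 0.79-fold. miR-24-3p had -0.37 ± 0.20 (adjusted p = 0.186), and miR-23a had -0.00 ± 0.11 (adjusted p = 0.981).

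The call on the miR-27 members in REST depended on cow 9615. edgeR called 53 of the 388 miRNAs, which is 13.7%, with 19 higher in HOLS (4.9%) and 34 lower (8.76%), and 0 of the 4 members. Both miR-27 members were among the 125 with an unadjusted p under 0.05 (32.2%). Without cow 9615 edgeR called 101 of 388 miRNAs, 41 of them higher in HOLS. miR-27a-3p (-0.33, adjusted p = 0.0170) and miR-27b (-0.40, adjusted p = 0.0181) were among these 101. miR-24-3p (-0.40, adjusted p = 0.0895) and miR-23a (0.01) were not. DESeq2 called 85 of 410 miRNAs over all libraries, 37 of them higher in HOLS, with miR-27b at -0.31 and an adjusted p of 0.0478. Exact two-sided permutation tests of the log2 normalized read counts gave p = 0.00866 for miR-27a-3p and p = 0.0216 for miR-27b, each 0.156 after adjustment over 20 tests. In the same REST libraries, the smooth muscle and stroma markers summed to a median of 2739210 in HOLS and 3791350 in MONT, and the endothelial pair to 382646 and 322121. In edgeR's test 4 of these 7 stroma markers passed as lower in HOLS, and 1, miR-145, had a value above 0. Of the endothelial pair, miR-126-3p passed as higher in HOLS (adjusted p = 0.0248). Their part in the difference of miR-27a-3p and miR-27b was not tested. The lipid list had miR-16a higher in HOLS and miR-125b, miR-130a, miR-221 and miR-25 lower, so 5 of 31 passed. Of these, miR-16a passed in all 11 fits with a cow left out, and miR-125b, miR-130a, miR-221 and miR-25 missed the threshold in 1, 6, 4 and 7 of them. Under 9 other settings miR-25 missed it in 3 and miR-130a in 1. The fit without cow 9615, which called 101 of 388 miRNAs, had 5 of the list higher in HOLS and 4 lower.

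The comparison of the a cluster with the b cluster rests on the ratio of miR-27b to miR-27a-3p, the pair of versions with a row each, whose means lay between 20.3 and 21.6 in the 4 groups. The ratio is taken within a library and does not depend on how libraries are scaled. In HOLS CONT it was 19.97, 19.94, 22.9, 20.8 and 22.2 in cows 1155, 1165, 2182, 8200 and 9195, and in HOLS REST 21.6, 17.6, 25.3, 20.005 and 19.4. In MONT it ranged from 15.97 through a median of 20.6 to 24.4 in CONT and from 19.6 through 21.4 to 24.5 in REST. The 15.97 was the CONT library of cow 9615. The group means were 21.2 ± 1.33 and 20.8 ± 2.91 (SD, n = 5) in HOLS and 20.3 ± 2.91 and 21.6 ± 1.77 (n = 6) in MONT.

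No test set the a and b versions of miR-27 apart. The log2 ratio of miR-27a-3p to miR-27b changed by 0.03 ± 0.16 (SD over cows) in HOLS, -0.10 ± 0.20 in MONT and -0.04 ± 0.19 over the 11 cows from CONT to REST. Exact two-sided sign-flip permutation tests gave p = 0.688, p = 0.313 and p = 0.502, where the smallest p possible is 0.0625 with 5 cows, 0.0312 with 6 and 0.000977 with 11. The breeds differed by -0.07 in CONT (exact permutation p = 0.541) and by 0.07 in REST (p = 0.494). After Benjamini-Hochberg adjustment over the 30 tests of ratios among the members, these p-values lay between 0.721 and 0.903. The ratio of miR-23a to its counterpart miR-23b-3p was not analysed here.

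Within the a cluster, the ratio of miR-23a to miR-27a-3p had higher means in HOLS, a difference that did not pass after adjustment. This ratio was added after the values had been seen. It ranged from 0.421 through a median of 0.510 to 0.572 in HOLS CONT and from 0.352 through 0.381 to 0.447 in MONT CONT. In REST it ranged from 0.420 through 0.482 to 0.592 in HOLS and from 0.363 through 0.395 to 0.515 in MONT. The ranges overlapped in both periods. The HOLS value was 1.30-fold that of MONT in CONT (log2 difference 0.38, exact permutation p = 0.00866) and 1.20-fold in REST (0.27, exact permutation p = 0.0433), and the adjusted p-values over the 30 tests were 0.260 and 0.286, so neither passed. The ratio of miR-23a to miR-27b differed in the same direction, 1.24-fold in CONT and 1.26-fold in REST, with an adjusted p of 0.286 for each exact permutation test. From CONT to REST the ratio of miR-23a to miR-27a-3p changed by -0.03 ± 0.28 in HOLS and 0.08 ± 0.26 in MONT on the log2 scale (exact permutation p = 0.938 and p = 0.625).

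**Figure D3:**
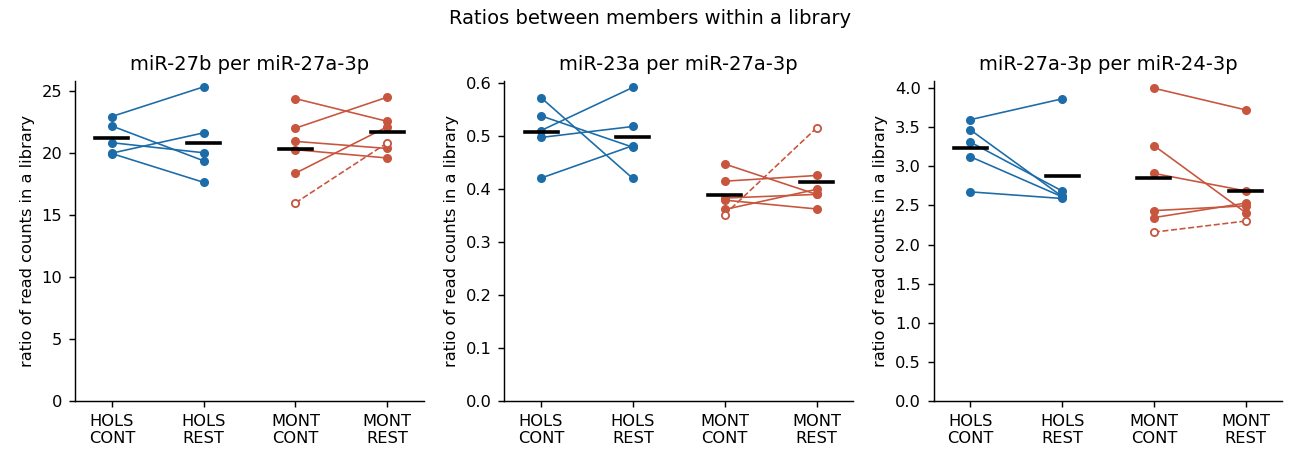
Ratios of read counts within a library (y axis, linear, from 0) for miR-27b to miR-27a-3p, miR-23a to miR-27a-3p and miR-27a-3p to miR-24-3p, in CONT and REST of HOLS (blue) and MONT (red), with a line for each cow, dashed for MONT cow 9615, and black bars for group means. The means of the ratio of miR-27b to miR-27a-3p lie between 20.3 and 21.6 in the 4 groups, and the HOLS means of the ratio of miR-23a to miR-27a-3p, 0.508 and 0.498, lie above the MONT means of 0.390 and 0.414.

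Over the 22 libraries together, miR-27a-3p and miR-27b kept a more constant ratio to each other than to any other of the 219 partners compared with each. The SD of their log2 ratio was 0.16, rank 1 of 219 for both, where the median partner had 0.42 and 0.45. Their reads may be shared, as said above. After each other, miR-28 and miR-140 came closest for miR-27a-3p (0.18 each), and miR-194b and miR-140 for miR-27b (0.19 and 0.20). The ranks depended on the libraries used. On deviations from the group means miR-27b was rank 3 for miR-27a-3p, after miR-140 and miR-28, and miR-27a-3p rank 1 for miR-27b (SD 0.15). Within HOLS these ranks were 8 and 2, and within MONT both were 4.

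For miR-23a and miR-27a-3p, both from the a cluster, the SD over all libraries was 0.23 and miR-27a-3p ranked 5 of 219 for miR-23a, after miR-151-5p (0.20), miR-425-5p (0.21) and let-7b (0.22), among others. On deviations from the group means miR-27a-3p was rank 1 for miR-23a, with an SD of 0.15, equal at that precision to the SD of the miR-27 pair. It was rank 3 within HOLS (0.16) and rank 2 within MONT (0.15, against 0.17 for the miR-27 pair).

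miR-24-3p kept its most constant ratios with miR-146a, miR-342 and miR-99a-5p (0.25 each) over all libraries. Its SD was 0.26 to miR-27a-3p of the a cluster, rank 5 of 219, and 0.38 to miR-27b of the b cluster, rank 42. On deviations from the group means these ranks were 13 (0.24) and 78 (0.36). These SDs describe libraries that share cows and carry no test.

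**Figure D4:**
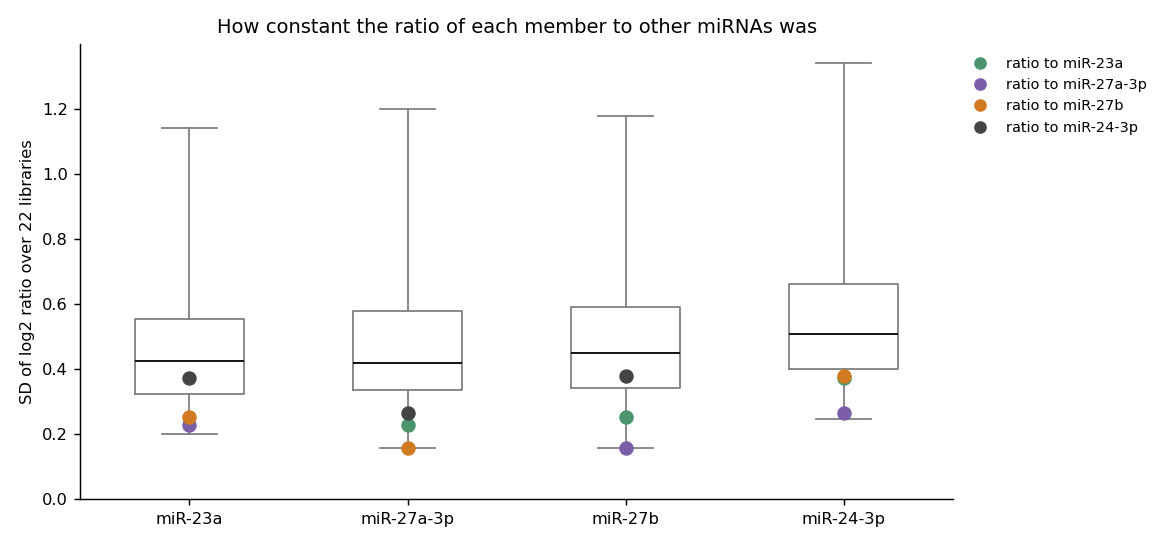
SD over 22 libraries of the log2 ratio of each member to 219 other miRNAs (y axis, from 0), as a box of quartiles with the median and whiskers to the lowest and highest value, for miR-23a, miR-27a-3p, miR-27b and miR-24-3p (x axis), with coloured points for the ratios among the members. Over all 22 libraries, the points of miR-27a-3p with miR-27b lie at 0.16, the lowest end of both whiskers.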

How the data were processed

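Per the labels and the study's methods, small RNA libraries of mammary biopsies (TruSeq Small RNA) were sequenced, and the authors removed adapters, kept reads of 18 to 25 nt, annotated them with ncPRO-seq and aligned them with miRDeep2 to the btau5.0.1 genome and miRBase. The submitters' processing notes name bcl2fastq 2.17.1.14 and DESeq2 1.18.1. The deposited counts are raw reads per miRNA. The authors' normalized values, fold changes and p-values in the same tables were not used.

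Counts were tested with edgeR 4.0.16 in R 4.3.3 (TMM, filterByExpr with a minimum count of 10, quasi-likelihood F test, Benjamini-Hochberg adjustment over all miRNAs tested, threshold 0.05), within each breed, over both breeds and for the breeds within each period in a fit of all 22 libraries. Group values used DESeq2 1.42.0 size factors, and changes of single cows are on the log2 scale of these values. A pseudocount of 1 was added only for the SDs over libraries behind the ranks and for the correlations between the libraries of a cow. Single values and ratios were tested with exact permutation tests (scipy 1.17.1). Limma 3.58.1, DESeq2 and other scalings and filters served as alternatives. The steps were tested on simulated data. No 2 libraries held identical counts.

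By the labels, libraries that share a number were biopsies of 1 cow. Their deviations from the period means correlated with r of 0.25 to 0.53 in HOLS and of -0.33 to 0.76 in MONT. The study's methods name no block, so fits without it are the main ones. These main fits treat both libraries of a cow as independent, so their p-values do not take the pairing into account. The sign-flip tests and the fits with the cow as a block measure the spread of the changes within cows. The permutation tests between the breeds use each cow once and measure the spread between cows. The named miRNAs are the members, the other arms of the clusters, miRNAs of a lipid list past the threshold or at its extremes, and for each member the 3 with the most constant ratio. The members and lists were chosen with earlier results of these data known. Gene order was taken from RefSeq (ARS-UCD2.0).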

Additional observations from a re-analysis of the deposited data

Results flagged for a closer look

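In 3 of 48 sets of values (the members, miR-27a-5p, the entry bta-miR-24 and the log2 ratios among the members, in each group), a single cow stood apart. Chance gives about 2.4 at a rate of 1 in 20. The log2 ratio of miR-27a-3p to miR-24-3p was 1.95 in HOLS REST cow 2182, against 1.37 to 1.42 in the other 4 cows. The same ratio was 1.89 in MONT REST cow 1640, against 1.20 to 1.42 in the others. In that library the log2 ratio of miR-27b to miR-24-3p was 6.51, against 5.58 to 5.92. All 3 involve miR-24-3p, which was the lowest of its group in both cows.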

How the results depend on the processing

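Of 222 fits of the 4 members under other tools, scalings and filters, 1 was called, that of miR-27b between the breeds in REST with DESeq2, and of 220 fits with a cow left out 2 were called, both without MONT cow 9615. The libraries of a cow pair, and the cow as a replicate block raised the calls of REST against CONT over all miRNAs from 9 to 61 in HOLS (30 up) and from 35 to 56 over both breeds (17 up), and DESeq2 with the block, added after the data were seen, gave 70 (40 up) and 109 (58 up), against 0 up of 9 and 8 up of 35 in the fits without it, with no member called in any of them.

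The number of miRNAs called in HOLS was 26 with DESeq2, 17 with limma-voom, 20 with library size only and 5 without a filter. The calls with DESeq2 were 7 up and those of the main fit 0 up. Over both breeds there were 55 with DESeq2 (21 up, against 8 of 35) and 13 without a filter. Between the breeds in CONT, the count of 29 became 15 with limma-voom, 3 with library size only, 15 with the upper quartile, 3 without a filter, 16 with a mean of at least 10, 19 with miR-27a-3p and miR-27b summed and 2 with the CONT libraries only, an alternative added later. Of these, 12, 3, 10, 3, 9, 9 and 2 were higher in HOLS, against 17 of 29. In REST, DESeq2 called 85.

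Members near 0 changed sign. miR-27a-3p in HOLS became -0.16 with library size only, -0.056 with the upper quartile, -0.0061 without a filter and -0.021 with a mean of at least 10. The medians of all miRNAs in these settings were -0.15, -0.046, 0.0067 and -0.0091. In MONT the upper quartile gave -0.078 for miR-27a-3p and -0.0049 for miR-24-3p, where the median of all miRNAs was -0.19. Over both breeds, library size only gave -0.011 for miR-23a and -0.035 for miR-27a-3p, where the median of all miRNAs was -0.098. There the entry bta-miR-24 became 0.028 with DESeq2, 0.026 with its size factors and 0.028 with its replicate block. It became 0.0077 without a filter, 0.022 with a mean of at least 10 and 0.014 with the miR-27 pair summed. The interaction of miR-24-3p became -0.029 with limma-voom, -0.084 with library size only and -0.029 with the replicate block. The medians of all miRNAs were then -0.020, -0.092 and -0.014. The breed difference in CONT of miR-27a-5p became -0.015 with the pair summed, and that of miR-23a in REST 0.021 with DESeq2, 0.018 with its size factors, 0.054 without a filter, 0.049 with the pair summed and 0.027 with REST libraries only. The ratio of the a cluster to the b cluster in CONT became 0.047 (exact permutation p = 0.641) with miR-23a added to miR-27a-3p. The ratio of miR-23a to miR-27a-3p in REST, as a share in percent, differed by 3.97 points with an exact permutation p of 0.0519. The causes were not tested. Summing the miR-23 pair was not run, since miR-23b-3p was not analysed here.

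With each cow left out in turn, the calls ran from 3 to 14 in HOLS, 0 to 46 in MONT, 11 to 121 over both breeds, 0 to 31 between the breeds in CONT and 16 to 101 in REST, where the highest counts in MONT, over both breeds and in REST came without cow 9615. The HOLS change of miR-24-3p ran from 0.091 to 0.23. The other HOLS changes ran from -0.096 to 0.038 for miR-23a, -0.050 to 0.027 for miR-27a-3p, -0.096 to 0.013 for miR-27b and -0.18 to 0.074 for miR-27a-5p. The change over both breeds of bta-miR-24 ran from -0.057 to 0.081, and the interaction from -0.26 to 0.020 for miR-27a-3p and -0.18 to 0.15 for miR-24-3p. The breed difference ran from -0.096 to 0.12 for miR-27a-5p in CONT and -0.053 to 0.074 for miR-23a in REST. The change of the log2 ratio of miR-27a-3p to miR-27b in HOLS ran from -0.0052 to 0.079, and that of miR-23a to miR-27a-3p from -0.090 to 0.075 in HOLS, -0.011 to 0.14 in MONT and -0.020 to 0.079 over both breeds. The breed difference of that ratio in REST ran from 0.20 to 0.33, with exact permutation p-values from 0.0159 to 0.0952 and 8 of 11 above the threshold.

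How reads shared by miR-27a-3p and miR-27b were assigned is not given in the sources used here, and its effect was tested by summing the pair only. The effects of depth and of library quality on the calls were not tested.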
